A study of Mus musculus with 16 samples.

Results

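The antioxidant and redox defense genes described here are 10 mouse genes, read by symbol from the deposited expression tables, out of 33641 genes listed there. They are the glutathione peroxidases Gpx1, Gpx3 and Gpx4, the thioredoxin reductase Txnrd1, catalase (Cat), the superoxide dismutases Sod1, Sod2 and Sod3, and the inducible enzymes Hmox1 and Nqo1. All 10 passed the filter on low values in both tissues. Their levels were measured by RNA-seq in the left ventricle of the heart and in subcutaneous white adipose tissue (scWAT) of mice of the strain C57BL/6J, all 28 weeks old. One genotype, called Adipo-HuR KO in the labels, lacks HuR in adipocytes, per the series title, and the other is wild type (WT). HuR binds and stabilises many messenger RNAs and is the product of the gene Elavl1. The labels name no driver of the deletion, and whole tissue was sequenced. The heart groups were 4 libraries labelled KO (mice A25, A29, A30 and A31) and 4 WT libraries (A5, A7, A8 and A14), and the scWAT groups were 3 libraries labelled KO (A24, A26 and A30) and 5 WT libraries (A5, A7, A8, A12 and A14). The 16 libraries came from 11 mice, of which 5 gave both tissues.

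These enzymes act in sequence. Superoxide dismutases turn superoxide, a by-product of respiration and a product of NADPH oxidases, into hydrogen peroxide, in the cytosol (Sod1), in the mitochondrial matrix (Sod2) and outside the cell (Sod3). Catalase and the glutathione peroxidases then remove the peroxide. Thioredoxin reductase draws reducing power from NADPH for thioredoxin. Hmox1 and Nqo1 are textbook targets of the transcription factor NRF2 and rise in many cells under oxidative or electrophilic stress.

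The targeted gene was not lower in the libraries labelled KO. Elavl1 stood at 42.9, 42.0 and 36.2 TPM in the scWAT libraries labelled KO and at 33.4, 34.5, 27.6, 19.5 and 19.0 TPM in WT scWAT, so that all 3 labelled KO lay above all 5 WT, opposite to a loss of the transcript (log2 fold change 0.61, SE 0.22, limma adjusted p = 0.256). In hearts it stood at 10.3, 8.82, 15.9 and 8.45 TPM in the libraries labelled KO and at 6.66, 12.6, 12.04 and 10.4 TPM in WT. No group labelled KO lay below its WT group, and a value per gene cannot show a missing exon, so the libraries are called labelled KO throughout. TPM divides each gene's signal by its transcript length and scales each library to the same total of 1e+06, so genes can be compared within a library but the depth is unknown. The heart labelled KO from mouse A29 stood apart from the other 3 in its group and lay among the WT hearts for most of the genes described here, so heart results are given with and without it. A29 was singled out from its expression in these data, and p-values without it are not independent of that choice.

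**Figure D1:**
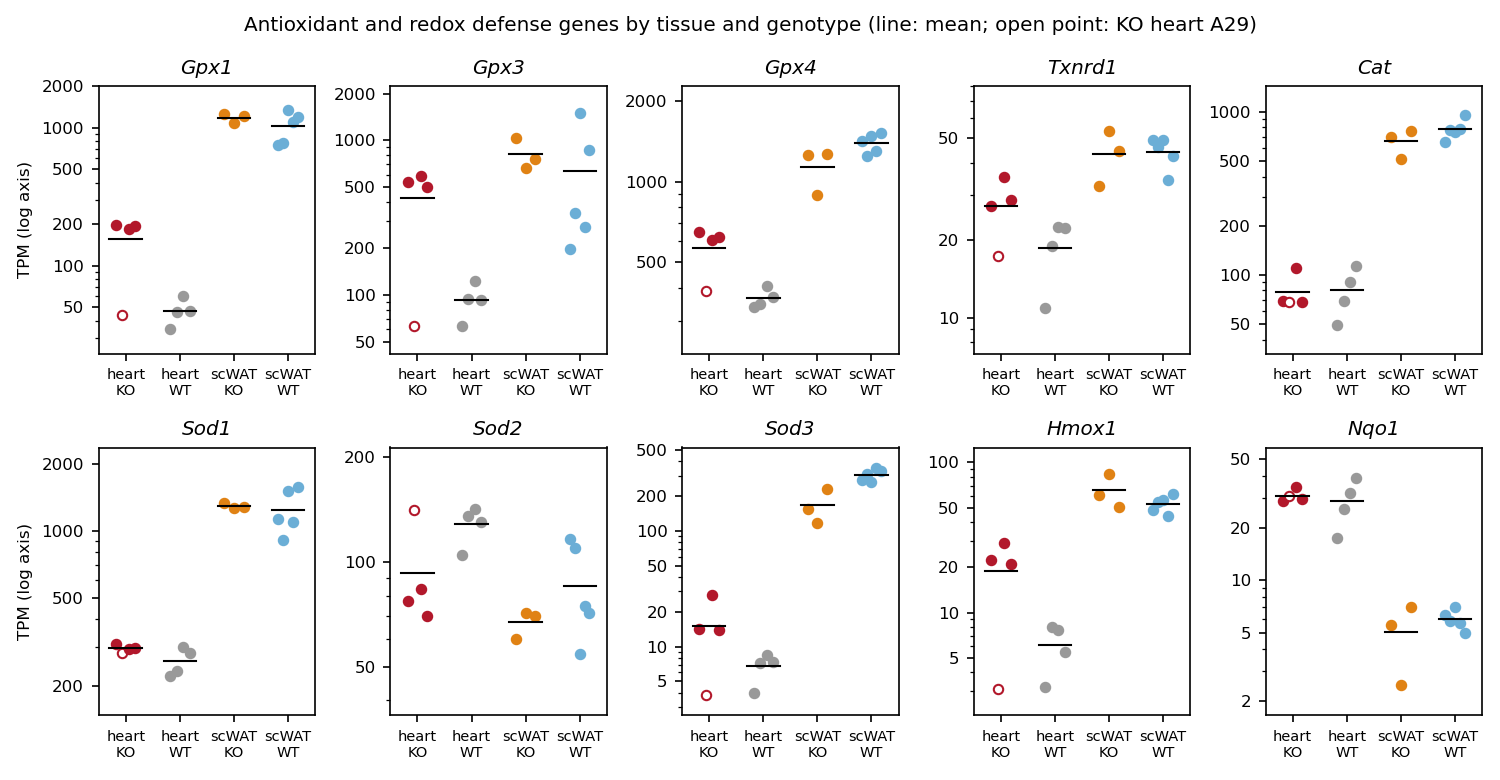
TPM of each gene on a log axis, 1 panel per gene, for hearts labelled KO (4), WT hearts (4), scWAT labelled KO (3) and WT scWAT (5); each point is a library, the line is the group mean and the open point is heart A29. Gpx3 lies between 502 and 584 TPM in the 3 filled hearts labelled KO and between 62.8 and 122 TPM in WT hearts, with A29 at 63.4 TPM, and Sod2 has the opposite order.

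Of the 10 genes, 4 encode selenoproteins, in which a UGA codon (TGA in DNA) is read as selenocysteine and not as a stop. That residue does the chemistry of the enzyme, so these 4 depend on selenium supply as the other 6 do not. The coding sequence around that codon is shown for these 4 because they include the genes with the highest heart ratios. Sequences are from the GENCODE M21 annotation on GRCm38, plus strand, with the TGA in capitals.
Gpx1: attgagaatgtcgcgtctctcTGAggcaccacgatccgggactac
Gpx3: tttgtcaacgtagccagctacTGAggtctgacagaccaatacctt
Gpx4: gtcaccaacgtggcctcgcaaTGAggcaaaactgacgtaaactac
Txnrd1: gacatcctccagtctggctgcTGAggt
The codon lies in the coding exon at chr9:108339451-108339453 in Gpx1, chr11:54907256-54907258 in Gpx3, chr10:80054737-80054739 in Gpx4 and chr10:82896037-82896039 in Txnrd1. In the peroxidases it falls inside the protein, at codon 47 of 201 in Gpx1, codon 73 of 226 in Gpx3 and codon 129 of 253 in Gpx4. In Txnrd1 it is the last but one, codon 498 of 499. Over the 45 bases shown, Gpx1 shared 21 with Gpx3 and 25 with Gpx4, and Gpx3 shared 24 with Gpx4. The annotation marks 24 genes with a selenocysteine in all.

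In WT mice the levels of these genes differed between the tissues, but the count of lower genes in heart was that of genes at large. With TPM as deposited all 10 differed between WT heart and WT scWAT in limma on log2(TPM + 1), with p-values adjusted by the Benjamini-Hochberg method over all 13093 genes tested and a threshold of 0.05. Nqo1 and Sod2 were higher in heart (2 of 10), where 8.12% of all genes were called higher, and the other 8 were lower, where 78.5% were called lower, so that 8 of 10 is the background share. The median of all genes was a log2 difference of -1.27 between these tissues. Mitochondrially encoded transcripts held 54.7% ± 3.99 of TPM in WT hearts and 8.70% ± 3.27 in WT scWAT (SD, n = 4 and n = 5). With median-of-ratios scaling, which centres the genes, 33.1% of all genes were higher and 33.7% lower, and the members split into 2 higher and 6 lower. Gpx3 (adjusted p = 0.138) and Txnrd1 (adjusted p = 0.110) then missed the limma threshold, and the sign of Txnrd1 turned positive (log2 difference 0.20). Here and in hearts below, p-values test the log2 difference of TPM as deposited, and the value relative to the median of all genes is given beside it without a test.

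Sod3, the extracellular superoxide dismutase, had the widest gap. It stood at 3.94, 7.23, 8.42 and 7.35 TPM in WT hearts and at 274, 310, 262, 351 and 328 TPM in WT scWAT, 45.3-fold more in fat by the means. Its log2 difference was -5.34 (SE 0.20, limma adjusted p = 1.44e-10), or -4.07 relative to the median of all genes. Gpx1, the cytosolic glutathione peroxidase, averaged 46.9 ± 10.3 TPM in WT hearts and 1035 ± 263 TPM in WT scWAT (SD, n = 4 and n = 5), and its log2 difference was -4.42 (limma adjusted p = 1.77e-09), or -3.16 relative to the median. Catalase, the peroxisomal enzyme, averaged 80.4 ± 27.3 TPM in WT hearts and 782 ± 111 TPM in WT scWAT. Hmox1, which degrades heme, averaged 6.09 ± 2.24 TPM in WT hearts and 52.9 ± 6.79 TPM in WT scWAT. None of these 4 genes had overlapping values between the tissues. By limma, which is a different measure, 78.5% of all genes were called lower in heart. The share of all genes without overlap between the tissues is not given, here or for Nqo1 below.

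The genes higher in heart were a quinone reductase and the mitochondrial dismutase. Nqo1 stood at 17.5, 25.7, 32.1 and 39.1 TPM in WT hearts and at 6.31, 5.86, 7.01, 5.70 and 4.98 TPM in WT scWAT. The tissues did not overlap, and the log2 difference was 2.04 (SE 0.21, limma adjusted p = 1.77e-06), or 3.30 relative to the median. Sod2 stood at 105, 136, 142 and 130 TPM in WT hearts and at 116, 110, 54.4, 74.8 and 71.5 TPM in WT scWAT. Its tissues overlapped through heart A5 and fat A5 and A7, and the log2 difference was 0.63 (SE 0.22, limma adjusted p = 0.0166), or 1.90 relative to the median.

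By mean level, WT hearts had Gpx4 first (366 TPM), then Sod1 (259), Sod2 (128), Gpx3 (93.2), Cat (80.4), Gpx1 (46.9), Nqo1 (28.6), Txnrd1 (18.7), Sod3 (6.74) and Hmox1 (6.09 TPM). Neighbours in that order overlapped between libraries from Sod2 down to Txnrd1, and again for Sod3 and Hmox1, while Gpx4 was apart from Sod1 and Sod1 from Sod2. Within each single WT heart the order was the same, except that Cat was above Gpx3 in A14 and Hmox1 above Sod3 in A7. Gpx4, the peroxidase that reduces lipid hydroperoxides in membranes, ranked between 126 and 183 from the top among all genes over the 8 hearts. WT scWAT had Gpx4 first (1394 TPM), then Sod1 (1242), Gpx1 (1035), Cat (782), Gpx3 (632), Sod3 (305), Sod2 (85.3), Hmox1 (52.9), Txnrd1 (44.3) and Nqo1 (5.97 TPM). There, neighbours overlapped from Gpx4 down to Sod3 and from Sod2 down to Txnrd1, and within single libraries the order of the means held only in A7.

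In hearts labelled KO other than A29, the peroxidases Gpx3 and Gpx1 stood highest above WT and mitochondrial Sod2 lay below it. Gpx3, Gpx1, Hmox1, Sod3, Gpx4 and Txnrd1 rose and Sod2 fell in the fit without A29, while Sod1, Cat and Nqo1 did not pass. With all 4 libraries labelled KO, 0 of the 10 passed adjusted p 0.05 in limma, where 0.0501% of all 11981 genes were called. At an unadjusted p under 0.05 stood 5 of the 10, and of all 11981 genes 2508 were higher and 439 lower at that level. No member's groups were free of overlap with A29 included, against 4.35% of all genes. Leaving A29 out, 6 of the 10 members rose, where 34.8% of all 12081 genes were called higher, and 1 fell, where 4.16% were called lower. With median-of-ratios scaling and without A29, 4 were higher and 1 lower, against 20.9% and 19.8% of all genes. Fold changes below are log2 values of TPM as deposited, with their SE and p, and the value relative to the median of all genes, which was 0.26 with all libraries and 0.39 without A29, follows. The exact permutation test of 1 gene cannot go below p = 0.0286 in either heart comparison.

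**Figure D2:**
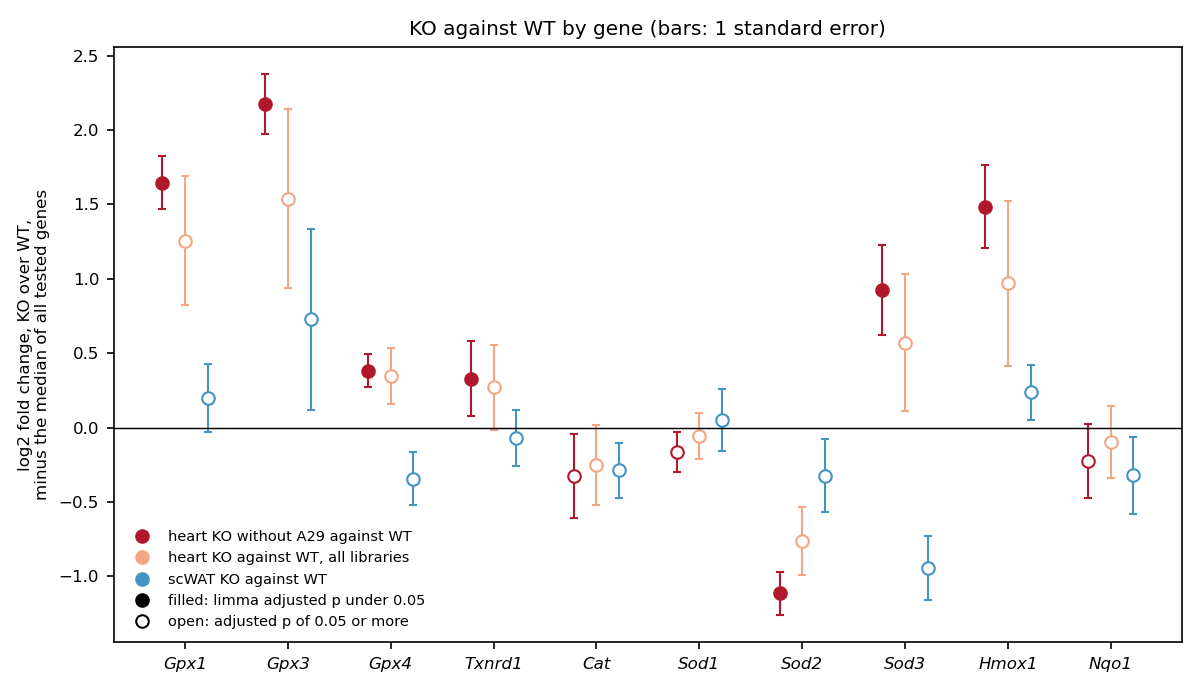
Log2 fold change of each gene, libraries labelled KO over WT, after subtracting the median of all tested genes, for heart without A29, heart with all libraries and scWAT; bars are 1 standard error from limma and filled points passed adjusted p 0.05, a test of the change before that subtraction. Gpx3 (2.17), Gpx1 (1.65) and Hmox1 (1.49) are highest in heart without A29, Sod2 is at -1.12, and no point of the other 2 comparisons is filled.

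Gpx3 encodes the secreted glutathione peroxidase of plasma and extracellular fluid. Hearts labelled KO had 541, 63.4, 584 and 502 TPM (A25, A29, A30 and A31), against 62.8, 94.1, 122 and 93.4 TPM in WT hearts. A29 lay at the low end of WT and the other 3 were all above it, at 542 ± 41.03 TPM (SD, n = 3). The fold change was 1.80 (SE 0.60, limma adjusted p = 0.142) with all libraries and 2.56 (SE 0.20, adjusted p = 2.78e-05) without A29, or 1.54 and 2.17 relative to the median. Without A29 the ratio of mean TPM was 5.82.

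Gpx1 is the main cytosolic and mitochondrial glutathione peroxidase. Its levels were 197, 44.2, 184 and 195 TPM in hearts labelled KO and 34.7, 46.1, 59.9 and 46.9 TPM in WT hearts. The 3 hearts other than A29 were close to each other and above all WT hearts, with a ratio of mean TPM of 4.10. The fold change was 1.51 (SE 0.43, limma adjusted p = 0.142) with all libraries and 2.04 (SE 0.18, adjusted p = 4.66e-05) without A29, or 1.26 and 1.65 relative to the median.

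Gpx4 had a smaller fold change. It stood at 649, 388, 603 and 620 TPM in hearts labelled KO and at 340, 349, 405 and 370 TPM in WT hearts, so that A29 was inside the WT range and the other 3 above it. Its fold change without A29 was 0.77 (SE 0.11, limma adjusted p = 0.000665), or 0.38 relative to the median. With median-of-ratios scaling, which centres the genes before the test, it was 0.28 and did not pass (limma adjusted p = 0.276). Some reads of Gpx4 could be shared with a processed pseudogene, Gpx4-ps2, that the annotation lists and that was not analysed here.

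The make-up of the peroxidase pool differed by library in the same way as its members. Summed over Gpx1, Gpx3 and Gpx4, hearts labelled KO without A29 had 1358 ± 36.1 TPM (SD, n = 3), the heart A29 had 496 TPM and WT hearts had 506 ± 62.2 TPM (n = 4). Gpx4 was 46.0% ± 1.71 of that sum in hearts labelled KO without A29, 78.3% in A29 and 72.6% ± 3.70 in WT hearts. Gpx3 was 39.9% ± 2.37, 12.8% and 18.2% ± 2.76 in the same order, and Gpx1 was 14.1% ± 0.71, 8.91% and 9.19% ± 0.95. These sums and shares are descriptions, with no test.

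**Figure D3:**
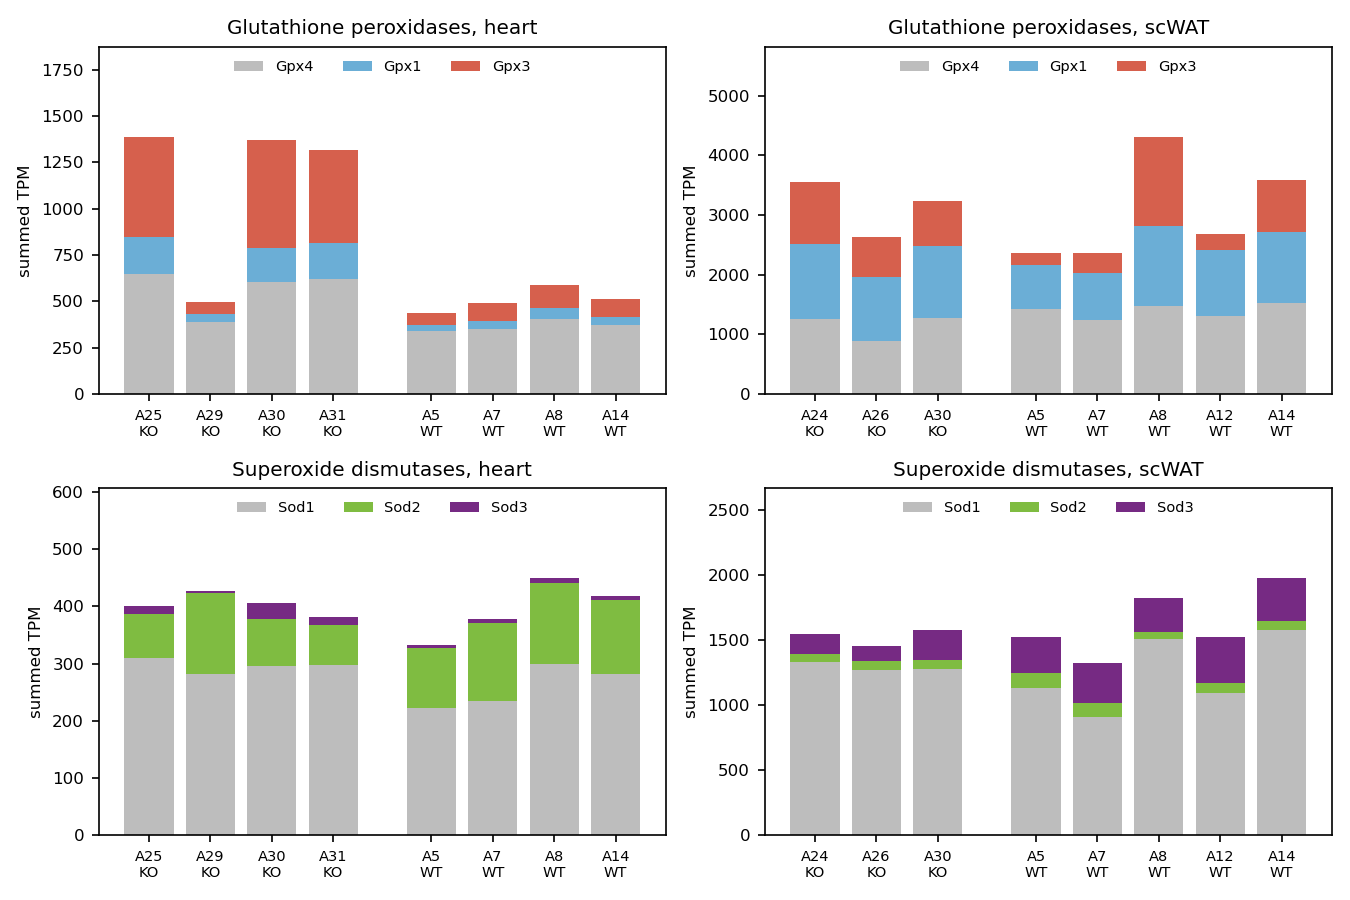
Stacked TPM of the glutathione peroxidases (top) and superoxide dismutases (bottom) in each heart library (left) and scWAT library (right), libraries labelled KO before WT. In hearts A25, A30 and A31 the peroxidase sum lies between 1318 and 1386 TPM against 437 to 587 TPM in WT hearts, while the dismutase sums of the 2 groups overlap.

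The superoxide dismutases did not move together. Sod2, the manganese enzyme of the mitochondrial matrix, stood at 77.1, 141, 83.4 and 70.0 TPM in hearts labelled KO and at 105, 136, 142 and 130 TPM in WT hearts. A29 lay among the WT hearts and the other 3 were below all of them. The fold change was -0.51 (SE 0.23, limma adjusted p = 0.202) with all libraries and -0.73 (SE 0.15, adjusted p = 0.00398) without A29, or -0.76 and -1.12 relative to the median. Without A29 it was also negative with median-of-ratios scaling, quantile normalization and without mitochondrially encoded genes.

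Sod3, which binds the extracellular matrix, had 14.2, 3.85, 27.9 and 13.8 TPM in hearts labelled KO, against 3.94, 7.23, 8.42 and 7.35 TPM in WT hearts. A29 was the lowest of all 8 hearts and A30 the highest. Without A29 the fold change was 1.31 (SE 0.30, limma adjusted p = 0.00759), and with it 0.83 (adjusted p = 0.280), or 0.92 and 0.57 relative to the median.

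Sod1, the copper-zinc enzyme of the cytosol, averaged 296 ± 11.6 TPM in hearts labelled KO and 259 ± 36.3 TPM in WT hearts (SD, n = 4 each), with overlapping groups. Without A29 its fold change was 0.22 with TPM as deposited (limma adjusted p = 0.221), -0.27 with median-of-ratios scaling (adjusted p = 0.2504) and -0.35 with quantile normalization (adjusted p = 0.0132). Median-of-ratios scaling shifts all genes together. The quantile method does not, and the SE of Sod1 was 0.090 there, against 0.14 as deposited. Sod1 lay below the median of all genes in each of these fits, at -0.16 as deposited and -0.25 after median-of-ratios scaling. The dismutase sum averaged 404 ± 18.4 TPM in hearts labelled KO and 394 ± 51.1 TPM in WT hearts (SD, n = 4 each). Within that sum, Sod2 was 19.4% ± 1.10 in hearts labelled KO without A29, 33.0% in A29 and 32.6% ± 2.23 in WT hearts.

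Hmox1 rose and Nqo1, the other inducible enzyme, did not pass. Hmox1, heme oxygenase 1, stood at 22.4, 3.11, 28.98 and 21.01 TPM in hearts labelled KO and at 3.20, 8.05, 7.66 and 5.47 TPM in WT hearts. A29 was the lowest heart of all and the other 3 were above all WT hearts. The fold change was 1.22 (SE 0.55, limma adjusted p = 0.202) with all libraries and 1.87 (SE 0.28, adjusted p = 0.000744) without A29, or 0.97 and 1.49 relative to the median. Nqo1 stood at 28.6, 30.6, 34.6 and 29.7 TPM in hearts labelled KO, all within the 17.5 to 39.1 TPM of WT hearts, and its fold change without A29 was 0.16 (SE 0.25, limma adjusted p = 0.636), or -0.23 relative to the median.

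Txnrd1, the cytosolic thioredoxin reductase, had 27.2, 17.4, 35.5 and 28.8 TPM in hearts labelled KO and 10.9, 19.1, 22.5 and 22.4 TPM in WT hearts. Without A29 its fold change was 0.72 (SE 0.25, limma adjusted p = 0.0463), or 0.33 relative to the median. It did not pass with median-of-ratios scaling (adjusted p = 0.134), quantile normalization (0.0836) or without mitochondrially encoded genes (0.0829). Catalase stood at 69.1, 67.5, 110 and 68.1 TPM in hearts labelled KO, inside the 49.2 to 113 TPM of WT hearts, with A30 apart from the other 3. Its fold change without A29 was 0.06 (SE 0.28, limma adjusted p = 0.876), or -0.32 relative to the median.

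Markers of other cell types moved in the same libraries. Macrophage markers (17 genes) summed to between 1454 and 1774 TPM in the hearts labelled KO other than A29, 185 TPM in A29 and 190 to 305 TPM in WT hearts, and 15 of the 16 tested were higher without A29. No macrophage marker was at 0 in all libraries of a heart group, and 4 of the 17 were below 1 TPM in every WT heart. Fibroblast markers (10 genes) summed to between 2621 and 3971 TPM in the hearts labelled KO other than A29, 304 TPM in A29 and 243 to 389 TPM in WT hearts, and all 10 were higher without A29. Cardiomyocyte markers (10 genes) summed to between 19068 and 26070 TPM in those hearts labelled KO, 32055 TPM in A29 and 25548 to 35823 TPM in WT hearts, and 3 of 10 were lower. Without A29, 34.8% of all genes were called higher and 4.16% lower. Endothelial markers were near that share, with 3 of 8 higher and 0 lower. Smooth muscle and pericyte markers had 5 of 8 higher, mast cell markers 3 of 5 and epithelial markers 1 of 1, with 0 lower. Skeletal muscle had 4 of 6 higher and 1 lower, adipocyte 1 of 7 higher and 1 lower, and thermogenic adipocyte 2 of 6 higher and 3 lower. Of erythrocyte (5), neutrophil (2) and B cell (1) markers tested 0 were called, and no T cell marker passed the filter. With median-of-ratios scaling 14 of 16 macrophage and 10 of 10 fibroblast markers were higher, and 8 of 10 cardiomyocyte markers were lower. The shares of all genes were then 20.9% higher and 19.8% lower. Endothelial markers had 1 higher and 3 lower, smooth muscle and pericyte 3 and 1, mast cell 0 and 0, and epithelial 1 and 0. Skeletal muscle had 3 higher and 1 lower, adipocyte 0 and 3, and thermogenic adipocyte 2 and 4. The part of these markers in the changes of Gpx1, Gpx3, Hmox1, Sod3 and Sod2 was not tested. In whole tissue, fewer cells of a type and less RNA per cell cannot be told apart.

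**Figure D4:**
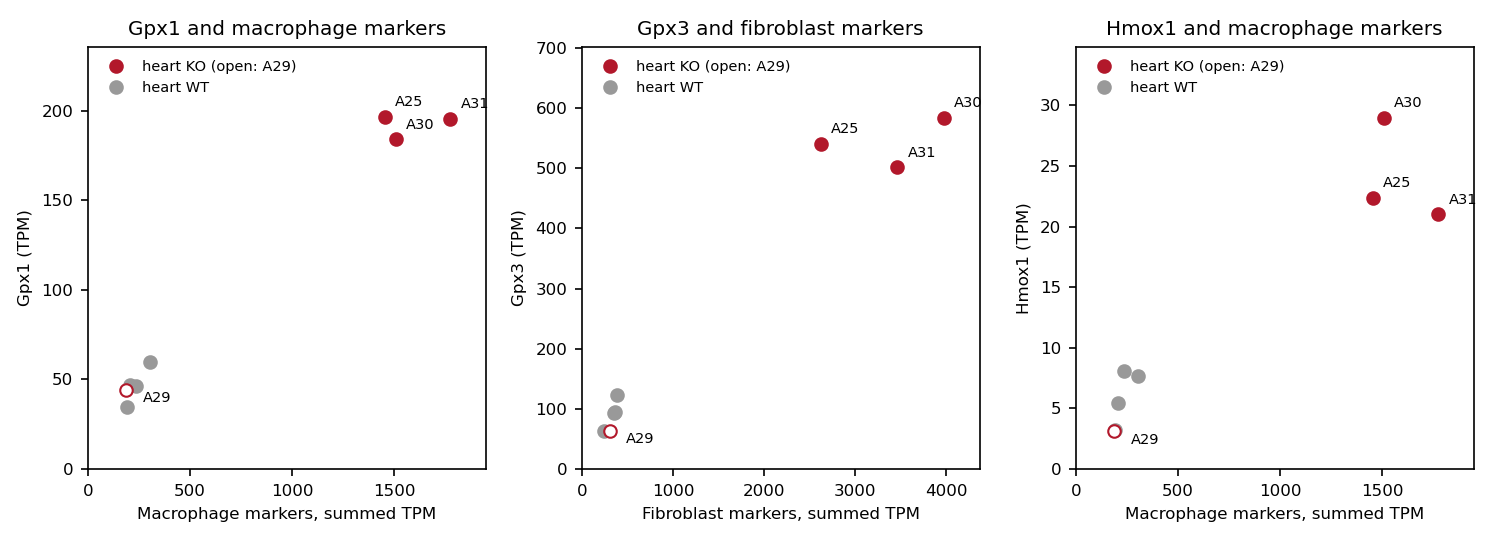
TPM of Gpx1, Gpx3 and Hmox1 in each heart against the summed TPM of macrophage or fibroblast markers in the same library, for hearts labelled KO (A29 open) and WT hearts. Hearts A25, A30 and A31 are high on both axes and A29 sits among the WT hearts, so the 8 points form 2 clusters and no correlation is given.

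In scWAT none of the 10 genes passed the test, and extracellular Sod3 had the lowest p. Of all 13682 genes, 0.0219% were called in limma. An unadjusted p under 0.05 was found for 1 of the 10 members, where 1109 of all genes were higher and 1029 lower at that level. Sod3 stood at 154, 117 and 232 TPM in scWAT labelled KO (A24, A26 and A30), against 274, 310, 262, 351 and 328 TPM in WT scWAT. All 3 were below all 5 WT libraries, with the mean at 0.549 of the WT mean. Sod3 was the 1 member of 10 whose scWAT groups did not overlap, against 10.3% of all genes. Its log2 fold change was -0.91 (SE 0.22, limma adjusted p = 0.216), and the exact permutation p of 0.0179, 2-sided, is the smallest this design allows. Without A30, the library labelled KO nearest to WT for Sod3, Sod3 passed (log2 fold change -1.17, limma adjusted p = 0.0440), when 0.549% of all genes were called. That was 1 of 19 alternative settings, and in the others Sod3 did not pass, with a limma adjusted p of up to 0.609. Fibroblast markers summed to 4973, 1340 and 3951 TPM in scWAT labelled KO and to between 3576 and 5502 TPM in WT scWAT. Their part in the Sod3 values was not tested.

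The peroxidases overlapped between the scWAT groups. Gpx3 varied most among the WT mice, with 1034, 659 and 757 TPM in scWAT labelled KO and 198, 338, 1492, 274 and 860 TPM in WT scWAT. The WT libraries A8 and A14 were high and A5, A7 and A12 low, and all 3 libraries labelled KO lay above the low ones and below A8, with A24 also above A14. Gpx4 had 1252, 890 and 1268 TPM in scWAT labelled KO and 1421, 1247, 1477, 1305 and 1520 TPM in WT scWAT. Its log2 fold change was -0.31 (SE 0.18, limma adjusted p = 0.400), with A26 lowest of all. Gpx1 averaged 1185 ± 94.8 TPM in scWAT labelled KO and 1035 ± 263 TPM in WT scWAT (SD, n = 3 and n = 5).

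Library A26 was at an extreme for several members in scWAT. It had the highest Hmox1 (83.8 TPM, against 60.8 and 50.5 TPM in the other 2 labelled KO and 44.2 to 61.5 TPM in WT) and the highest Txnrd1 (53.4 TPM, against 32.8 and 44.7 TPM in the other 2 and 34.3 to 49.2 TPM in WT). It had the lowest catalase (514 TPM, against 703 and 763 TPM in the other 2 and 651 to 958 TPM in WT) and the lowest Nqo1 (2.50 TPM, against 5.52 and 7.04 TPM in the other 2 and 4.98 to 7.01 TPM in WT). The same library had T cell markers summing to 625.3 TPM, against 11.2 to 20.2 TPM in WT scWAT, and B cell markers summing to 562 TPM, against 2.62 to 24.7 TPM. Skeletal muscle markers (13 genes) summed to 5989, 531 and 12192 TPM in scWAT labelled KO and to between 186 and 1463 TPM in WT scWAT. Their part in the members' values was not tested. Sod1 averaged 1290 ± 36.9 TPM in scWAT labelled KO and 1242 ± 286 TPM in WT scWAT, and Sod2 averaged 67.2 ± 6.13 and 85.3 ± 26.4 TPM in the same order.

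Whether the difference by genotype itself differed between heart and scWAT was tested with an interaction term. With all 16 libraries, 0 of the 10 members passed, where 0.0607% of 11536 genes were called in limma. An unadjusted p under 0.05 was found for 3 of the 10, where 1965 of all genes had a positive and 395 a negative difference at that level. Without A29, 4 passed, where 24.6% of 11624 genes were called. These were Sod3 (log2 difference of heart minus scWAT 2.22, SE 0.38, adjusted p = 0.000872), Gpx1 (1.81, adjusted p = 0.000638), Hmox1 (1.60, adjusted p = 0.00377) and Gpx4 (1.08, adjusted p = 0.00174). Relative to the median of all genes the same differences were 1.85, 1.44, 1.23 and 0.71. With median-of-ratios scaling, where 23.7% of genes were called, Hmox1, Sod3 and Gpx1 passed again, Gpx4 did not (adjusted p = 0.138), and Sod2 did with the opposite sign (-0.95, adjusted p = 0.0279).

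Mouse A30, labelled KO, gave both tissues and so did 4 WT mice. In A30 the scWAT level of Gpx3 was 1.30 times the heart level, against 3.15 to 12.2 times in the WT mice. For Gpx1 it was 6.61 times in A30 and 16.9 to 25.7 times in WT mice, and for Hmox1 1.74 times in A30 and 6.75 to 15.1 times in WT mice. Sod3 had a ratio of 8.31 in A30 and of 31.1 to 69.6 in WT mice. Gpx4 (2.10 in A30 and 3.58 to 4.18 in WT mice), Txnrd1 (1.26 and 1.90 to 4.52) and catalase (6.93 and 8.33 to 13.2) were also lower in A30 than in all 4 WT mice. A30 was within the WT range for Sod1 (4.31 against 3.86 to 5.61), Sod2 (0.837 against 0.382 to 1.11) and Nqo1 (0.204 against 0.127 to 0.361). The share of all genes with a ratio in A30 below all 4 WT mice is not given. Genes at large also lay higher in hearts labelled KO without A29, with a median log2 fold change of 0.39. With 1 mouse there is no test.

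The wider redox pathway was read from 12 lists of other genes, and 0 genes of any list passed in scWAT or in heart with all libraries. In heart without A29, where 34.8% of all genes were called higher and 4.16% lower, the oxidases that make superoxide or peroxide had 8 of 13 tested genes higher and 1 lower. Cybb, the catalytic subunit of the phagocyte NADPH oxidase, had 7.97, 1.61, 11.7 and 14.3 TPM in hearts labelled KO and 1.57, 2.06, 2.11 and 2.85 TPM in WT hearts, again with A29 among WT. Its cytosolic partner Ncf1 averaged 10.9 ± 0.91 TPM in hearts labelled KO without A29 and 1.96 ± 0.45 TPM in WT hearts (SD, n = 3 and n = 4; limma adjusted p = 8.63e-05). Maob, a monoamine oxidase of the outer mitochondrial membrane, was the gene that fell, with 7.15, 27.5, 6.25 and 7.42 TPM in hearts labelled KO and 22.1, 29.1, 28.1 and 25.1 TPM in WT hearts.

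Other peroxide-removing genes were divided. Of 7 peroxiredoxins and sulfiredoxin, 3 were higher (Prdx1, Prdx4 and Srxn1) and 0 lower, and the list's median lay below that of all genes. Prdx4, of the endoplasmic reticulum, averaged 40.9 ± 3.99 TPM in hearts labelled KO without A29 and 11.5 ± 2.18 TPM in WT hearts (limma adjusted p = 0.000114), and mitochondrial Prdx3, named after its values were seen, averaged 138 ± 11.0 and 143 ± 22.2 TPM in the same order. Of 20 glutathione transferases and further peroxidases, 4 were higher and 4 lower. The peroxidases Gpx7 and Gpx8 of the endoplasmic reticulum were among the higher, Gpx7 with 14.5, 2.92, 16.1 and 15.5 TPM in hearts labelled KO and 2.12, 3.23, 3.49 and 3.45 TPM in WT hearts. The transferases Gstk1, Mgst3, Gsta4 and Gstm1 were the lower ones. Of 20 genes for selenoproteins and their synthesis, 12 were higher and 0 lower, among them the plasma selenium carrier Selenop, at 402 ± 46.3 TPM in hearts labelled KO without A29 and 156 ± 22.2 TPM in WT hearts (SD, n = 3 and n = 4).

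Of 23 further NRF2 target genes 11 were higher and 1 lower, and of 10 genes for NRF2 and its partners 3 were higher and 0 lower, the second near the share of all genes. Their medians were 0.22 and -0.13 relative to that of all genes. Nfe2l2, which encodes NRF2, averaged 38.7 ± 8.89 TPM in hearts labelled KO without A29 and 23.3 ± 5.57 TPM in WT hearts (limma adjusted p = 0.0320), and missed the threshold with median-of-ratios scaling (adjusted p = 0.286). The glutathione synthesis genes Gclc and Gclm, which encode the subunits of the rate-limiting ligase and are NRF2 targets, were also named after their values were seen and did not pass (limma adjusted p = 0.101 and 0.0892). Of 16 genes of NADPH supply 7 were higher and 4 lower. Mthfd2, of mitochondrial folate metabolism, stood at 17.7, 0.839, 20.3 and 18.2 TPM in hearts labelled KO and at 1.01, 1.58, 1.49 and 1.61 TPM in WT hearts. Idh2, the mitochondrial NADP isocitrate dehydrogenase, averaged 370 ± 81.4 TPM in hearts labelled KO without A29 and 784 ± 181 TPM in WT hearts (limma adjusted p = 0.00418). Nnt, a mitochondrial proton pump that makes NADPH and is known to be mutated in the C57BL/6J strain, stood at 14.3, 5.33 and 13.2 TPM in scWAT labelled KO (A24, A26 and A30) and between 4.07 and 6.15 TPM in WT scWAT. It did not pass there (limma adjusted p = 0.260). Skeletal muscle markers were also higher in A24 and A30 than in A26, and their part in the Nnt values was not tested. In hearts Nnt stood between 56.1 and 119 TPM in those labelled KO and between 63.2 and 144 TPM in WT. Without A29 its fold change there was -0.53 as deposited (limma adjusted p = 0.230). It was -1.01 with median-of-ratios scaling (adjusted p = 0.00324) and -0.98 with quantile normalization (adjusted p = 0.00927).

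The remaining lists stand against the 34.8% of all genes called higher and the 4.16% called lower. Thioredoxin and glutaredoxin genes had 4 of 13 higher and 1 lower, glutathione synthesis and recycling 5 of 10 higher and 1 lower, heme and iron genes 6 of 13 higher and 1 lower, metallothioneins and metal handling 4 of 8 higher and 0 lower, and uncoupling and peroxisome genes 4 of 10 higher and 2 lower. Median-of-ratios scaling shifts all genes, and with it 20.9% of all genes were called higher and 19.8% lower. Oxidases then had 8 higher and 5 lower, selenoprotein genes 6 and 2, NRF2 targets 7 and 5, peroxiredoxins 2 and 4, transferases 3 and 9, NADPH supply 4 and 6, thioredoxin genes 1 and 6, glutathione synthesis 1 and 1, NRF2 partners 1 and 4, heme and iron 3 and 4, metallothioneins 2 and 0, and uncoupling genes 2 and 4. The median log2 change of the oxidase list minus that of all genes was 1.03 as deposited and 1.06 with that scaling, and that of the peroxiredoxins was -0.39 and -0.47.

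**Figure D5:**
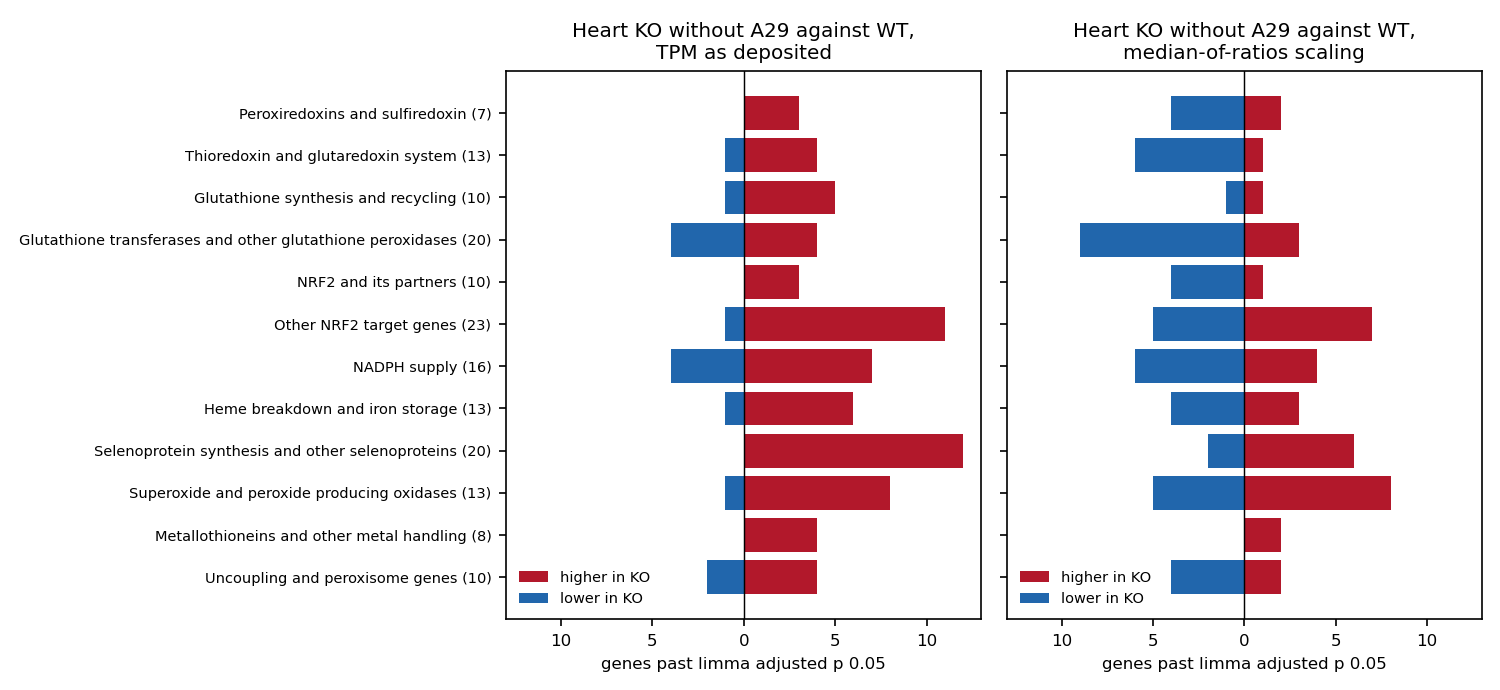
Number of genes past limma adjusted p 0.05 in each of 12 redox lists (tested genes in parentheses), higher to the right and lower to the left in hearts labelled KO without A29 against WT, with TPM as deposited and with median-of-ratios scaling. Oxidases have 8 higher genes under both, while transferases have 4 lower genes as deposited and 9 lower with that scaling.

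The promoters of the members were searched for the NRF2 recognition motif because 6 of them moved upwards together in heart without A29. Windows of RefSeq on GRCm38.p6, from 250 bases before to 50 after each gene's start, matched 8 of the 10 members by symbol, with 13 promoters. Hmox1 and Sod3, which both rose, had no window and were not searched. Sites farther from the start were not covered for any member. The antioxidant response element core TGACNNNGC, on either strand, was in 2 of these 13 promoters, of Txnrd1 and Sod1, and in 12.39% of 32851 promoters searched. The windows below show it in capitals as it reads on the gene's strand, which is its reverse complement, at 92 and 56 bases before the start.
Txnrd1: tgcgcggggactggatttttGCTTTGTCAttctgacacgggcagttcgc
Sod1: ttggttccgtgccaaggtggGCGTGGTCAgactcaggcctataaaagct
They lie at chr10:82859094-82859142 and chr16:90220686-90220734, plus strand. The AP-1 motif TGANTCA was in 0 of the 13 and in 7.808% of all promoters searched. Txnrd1 passed in heart without A29 with TPM as deposited and Sod1 did not, as given above, so the 2 promoters with a match belong to genes with different results.

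For the 3 members that varied most within tissues, the genes with the most similar pattern were found by the root-mean-square difference of log2(TPM + 1), after subtracting each tissue's mean, over the 16 libraries and 11536 genes. Genes near Gpx3 (SD 1.23) included Srpx (difference 0.44) and Tmem176b (0.45). Hmox1 (SD 0.82) was nearest to Arrb2 (0.18), Litaf (0.20) and Ucp2 (0.22), and Arrb2, like Hmox1, was highest in scWAT of A26, at 89.0 TPM. Gpx1 (SD 0.80) was nearest to Cd63 (0.17), Cd302 (0.19) and Iah1 (0.21). Cd63, a lysosomal membrane protein, stood at 184, 43.3, 186 and 204 TPM in hearts labelled KO and between 32.8 and 56.8 TPM in WT hearts. The likeness is a description over libraries that share tissue, and heart A29 lay among the WT hearts for Cd63.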

How the data were processed

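Each library has 1 table of TPM by gene symbol, as deposited by the authors and named in the file headers. Per the labels' protocols, RNA was taken from flash-frozen tissue. Aligner, quantifier, annotation and genome build: not given in the sources used here. Depth is unknown, so no counting interval is given.

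TPM was analysed as log2(TPM + 1), which understates changes of low genes. In each fit, limma 3.58.1 (R 4.3.3, eBayes with a trend, 2-sided) was run on the genes averaging 1 TPM or more across its libraries. The interaction fit required that mean in each tissue. Adjustment of p-values was by Benjamini-Hochberg with a threshold of 0.05. For libraries labelled KO against WT each tissue was fitted alone, while the interaction and WT tissue fits used both tissues. The tests were checked on simulated data. The members, the 12 redox and 14 marker lists and the rule for naming genes were chosen with earlier results of these data known, and 2 listed genes were not analysed here. Under that rule, list genes are named when past the threshold, or else among the 4 with the lowest p, and the 3 nearest genes are named for the 3 members with the largest SD. One result under this rule is not reported here.

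WT libraries of heart and scWAT with the same number come from 1 mouse, per the labels, so they are paired. Their deviations correlated at 0.080, 0.039, 0.130 and 0.173 over 10970 genes (A5, A7, A8 and A14). The highest correlation with another mouse was 0.084, 0.026, -0.0078 and -0.011 in the same order, so that for A5 it exceeded its own pair. With mouse as a replicate block, 10 members differed between the WT tissues, as without it, and 0 in the interaction test. The libraries within a group each came from a different mouse.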

Additional observations from a re-analysis of the deposited data

Results flagged for a closer look

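In 30 groups of at least 4 libraries (3 groups for each of 10 genes), 3 held a library far from its neighbours by Dixon's test, where chance flags about 1 in 20. Gpx3 at 63.4 TPM and Gpx1 at 44.2 TPM in heart A29 were far below the other 3 hearts labelled KO, and catalase at 110 TPM in heart A30 was far above the other 3.

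Gpx4 had a log2 difference of heart minus scWAT, in the change of libraries labelled KO against WT, of 0.91 (limma adjusted p = 0.0941 in the interaction test). It was flagged because every heart labelled KO was above the WT mean and every scWAT labelled KO below it. That opposite direction was not tested beyond the interaction term.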

How the results depend on the processing

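With all libraries, the genes called in scWAT numbered 3 and changed to 6 without a filter, 1 at a mean of at least 5 TPM, 5 each under median-of-ratios scaling and under quantile normalization, 80 with array weights, 179 in a shared fit over all 16 libraries and 0 among libraries of 1 file name style. Leaving out 1 library gave 2 to 130 genes (130 without A26, 75 without A30, 10 without A24) and 0 to 1 members. In heart the 6 genes became 11 without a filter, 2 at 5 TPM, 7885 with array weights and 846 in the shared fit, and 3 to 4705 when 1 library was left out (4705 without A29). The members called there were 8 with array weights, 1 in the shared fit (Gpx1) and 0 to 7 when 1 library was left out. Without A29 the 7 members called became 5 (median-of-ratios), 7 (quantile) and 6 (mitochondrially encoded genes removed). Of all genes, 2527 were then called higher and 2392 lower of 12081 (median-of-ratios), and 2588 and 2676 of 12081 (quantile). With mitochondrially encoded genes removed these were 3803 and 1179 of 13242. The interaction test called 4 members without A29, where 24.6% of all genes were called. With median-of-ratios scaling as well it called 4, where 23.7% of all genes were. It called 6 members with array weights and 0 with a replicate block for mouse. The shares of all genes called with array weights and with that block are not given. The alternatives that combine a scaling with leaving out A29 were chosen after seeing the data. At an unadjusted p under 0.05, 1109 genes were higher and 1029 lower in scWAT, and 2508 higher and 439 lower in heart.

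The sign turned for genes that had not passed. Txnrd1 in scWAT was 0.0038 without mitochondrially encoded genes, 0.19 in 1 file name style and between -0.19 and 0.15 when 1 library was left out. Over such omissions Sod1 in scWAT lay between -0.020 and 0.18, Nqo1 in scWAT between -0.54 and 0.062, Sod1 in heart (relative to the median) between -0.16 and 0.054, and Nqo1 in heart between -0.23 and 0.046. Sod1 in heart was also 0.043 with a pseudocount of 5, 0.16 without a filter and 0.035 with array weights, and Nqo1 in heart 0.11 without a filter. The cause was not tested. Depth is unknown, so the precision of low values cannot be given.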
